A study of Mus musculus with 12 samples.

Results

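Immature dendritic cells grown from mouse bone marrow, before any exposure to nanoparticles, are described here from the 3 arrays labelled 0 h, out of 12 arrays in the series. The marrow came from the femurs and tibias of female mice aged 6 to 8 weeks, and the sources used here do not name the strain. Marrow cells were cultured in RPMI 1640 with 10% heat-inactivated serum, 2-mercaptoethanol, antibiotics and recombinant GM-CSF at 20 ng/ml. Fresh medium was added on day 3, and the cells that floated or were loosely attached were collected on day 7. The labels name no sorting step, so each RNA sample holds every cell type that was collected that way. The other 9 arrays are of cells cultured with particles of poly(γ-glutamic acid) (γ-PGA) at 300 µg/ml for 6, 12 or 24 h. They enter only a check of how alike the arrays are, and no gene's level is compared between times.

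Cy3-labelled cRNA was hybridised to Agilent 1-colour mouse arrays. The level of a probe is the log2 of its processed signal minus the 75th percentile of its own array, so a level of 0 equals that percentile and a step of 1 is a doubling of signal. A probe was kept where the scanner software called it well above background on all 3 arrays, which held for 20827 of 41174 probes (50.6%). Named by RefSeq gene, 10559 of 16358 genes with a matched probe (64.5%) had a kept probe, and 4839 (29.6%) had no probe well above background on any array. Kept genes were ranked by mean level, and the position of a gene below is its rank as a percent of these 10559 genes, with the brightest probe first. The brightest 10% began at a level of 4.18, the brightest 25% at 2.61 and the brightest 50% at 0.85, and the dimmest 10% lay under -2.86. For each list below, the shares over all genes with a matched probe are 64.5% for kept genes and 6.45% for genes in the brightest 10%. A level mixes the amount of a transcript with how well its probe binds. In 3329 genes with several kept probes the probes of a gene lay a median of 1.88 log2 units (3.68-fold) apart, so positions describe probe signal and set no gene above another in abundance. Among genes counted in a list below, 147 had several kept probes, and those of 28 genes lay over 4 log2 units apart, Jak2, Tkt and Fasn among them. Where a gene has 3 values below, they are replicates 1, 2 and 3 in that order.

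In marrow cultures, GM-CSF drives myeloid precursors toward cells that carry the integrin CD11c and MHC class II molecules. Cells of this kind share features with dendritic cells, which take up antigen, cut it in lysosomes and show the peptides to T cells, and with monocyte-derived macrophages. An immature dendritic cell is known for high uptake and for MHC class II molecules held largely inside the cell, while costimulatory proteins and migration receptors are gained on maturation. Granulocytes are known to arise in the same cultures.

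The 3 arrays lay on 1 slide and were nearly alike. Of an array's spots other than controls, 52.1% to 55.7% passed the background call, the 75th percentile lay between 435.3 and 472.3 intensity units, and 165 to 185 spots were saturated. Levels correlated between the arrays across probes with Pearson's r of 0.9973 to 0.9976. The median SD of a kept gene over the 3 arrays was 0.0373 log2 units, and it was 0.0845 with normexp background correction and 0.0886 from the deposited value table. Among 132 kept probes that were spotted 10 times on each array, the median SD between spots of an array was 0.0815 and that between the arrays' means was 0.023, where spot noise alone would give 0.0258. On these probes and in this scaling the arrays at 0 h thus differed by no more than repeated spots did, although the series design speaks of 3 independent experiments. No pair stood apart from the other pairs, so n is 3 arrays, and each SD measures the spread between arrays, which may be technical. The arrays labelled 24 h correlated with those at 0 h at 0.9939 to 0.9952. The range was 0.9238 to 0.9299 for 6 h and 0.911 to 0.9131 for 12 h. Whether the likeness of 24 h to 0 h lies in the cells or in the labels was not tested. The deposited value table holds ratios to the median of the 3 columns at 0 h and therefore no level. A sample's deviation from the mean of the group at 0 h correlated between the scanner files and that table by only 0.0111, 0.1088 and 0.0748.

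**Figure D1:**
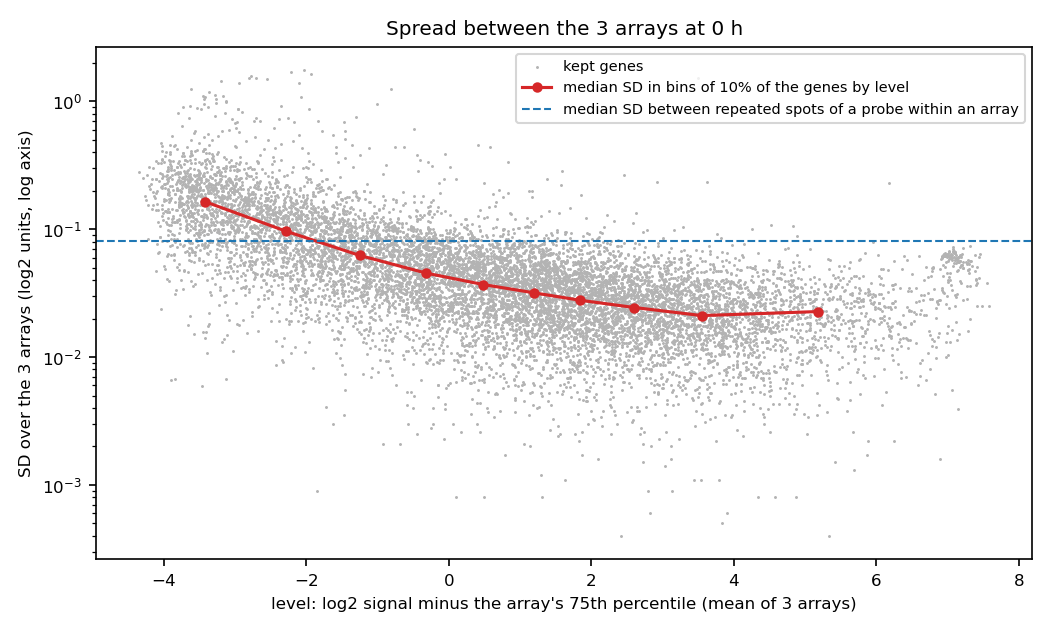
Each grey point is 1 of the 10559 kept genes at 0 h, with the mean level of 3 arrays on the x axis and the SD over the arrays on a log axis. The red line joins the median SD in bins of 10% of the genes by level, and the dashed line is the median SD of 0.0815 between repeated spots within an array. The median SD falls from 0.1646 in the dimmest 10% to 0.0211 in the bin next to the brightest, which itself lies at 0.0227.

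The spread was larger where signal was low. Kept genes in the brighter 50% had a median SD of 0.0251 and those in the dimmer 50% of 0.0642, and 73 kept genes had an SD above 0.5. At the top the scanner reached its limit. The probes of 99 kept genes (0.938%) were saturated on all 3 arrays and those of 112 (1.06%) on at least 1. A saturated level is a lower bound, so these genes have no order among themselves, and their shared spread follows the scaling of the arrays.

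Among the 30 brightest genes were 10 of ribosomal proteins, and 44 of the 99 genes saturated on all 3 arrays encode ribosomal proteins. Lgals3, which encodes galectin-3, a sugar-binding protein abundant in macrophages and dendritic cells, read at least 7.56, 7.59 and 7.61 on the 3 saturated arrays. Fth1 and Ftl1, the heavy and light chains of the iron store ferritin, were saturated throughout as well. Retnla, a secreted protein of alternatively activated macrophages, was saturated with levels of at least 7.39, 7.46 and 7.52. The lysosomal genes Ctsz, Ctss, Ctsd and Psap stood among the 30, as did the class II chain H2-Eb1 and the inhibitory receptor Pirb. The enzymes Mdh2, Aldoa and Taldo1, the endoplasmic reticulum protein Erp29, the actin-binding protein Cotl1 and the histone genes H2ac20 and H2ac1 were also there. Lrrc58, Klk1b11 and Lars2 completed the 30. Probes of ribosomal, histone, kallikrein and H2 genes can bind near-identical copies, so their readings are uncertain as to the gene. The kept probes of Lrrc58 read 7.43 and 1.70, which shows how far the choice of probe can move a gene.

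**Figure D2:**
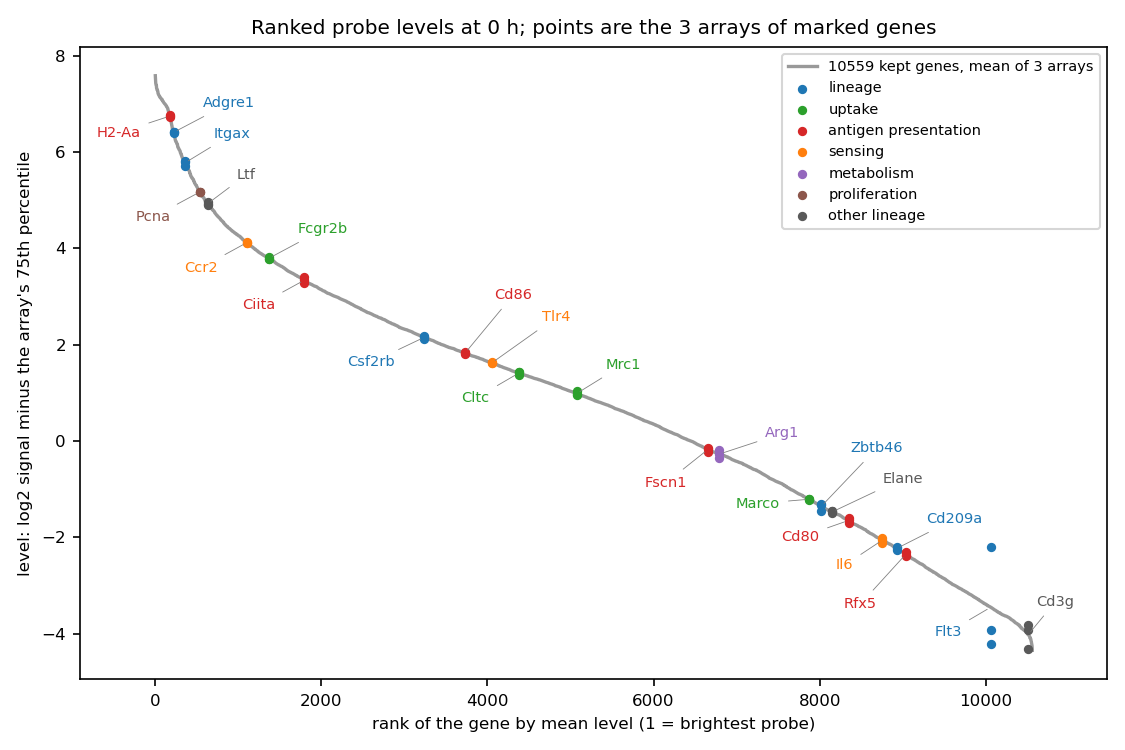
The grey line gives the mean level of each of the 10559 kept genes against its rank, and coloured points give the 3 arrays of marked genes, coloured by the kind of list they belong to. H2-Aa, Adgre1 and Itgax lie in the brightest 5%, and Zbtb46, Cd209a and Flt3 lie in the dimmer 50%. The points of Flt3 lie apart, from -4.22 to -2.20.

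Both dendritic cell and macrophage markers were read in the cultures, and the bulk RNA does not say whether the same cells carried them. Of the 22 genes of a conventional dendritic cell list, 20 were well above background on all 3 arrays, against 64.5% of all genes with a matched probe. All 4 defining markers were among the 20. Itgax, which encodes the integrin CD11c, read 5.82, 5.79 and 5.71, a mean of 5.77 ± 0.058 (SD, n = 3) at position 3.37%. The other 3 defining markers lay in the dimmer 50%. Zbtb46, a transcription factor of conventional dendritic cells, read -1.32, -1.45 and -1.30 (position 75.9%). Cd209a, a mouse relative of the lectin DC-SIGN found on monocyte-derived dendritic cells, read -2.22, -2.26 and -2.21 (position 84.6%). Flt3, the receptor of the growth factor that makes conventional dendritic cells, read -3.92, -4.22 and -2.20. The third array stood above the other two for Flt3, with an SD of 1.09, so its position of 95.3% is loose.

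Among other members, Mgl2 and Clec10a, lectins of the CD301 kind, had mean levels of 4.26 ± 0.043 (SD, n = 3) and 3.57 ± 0.034 (SD, n = 3). Transcription factors of dendritic cell development were read as well, with Id2 at 5.14, Relb at 4.13, Irf8 at 3.63, Batf3 at 2.84 and Irf4 at 0.05. Markers of the cross-presenting type 1 dendritic cell were uneven. Batf3 and Irf8, which that subset needs, lay at positions 22.3% and 14.4%, and Cd24a, a surface protein that it shares with other leukocytes, read 5.13, 5.15 and 5.17 at position 5.13%. The markers Xcr1, Itgae, Cadm1 and Clec9a lay in the dimmer 50% or were not kept. Xcr1, its chemokine receptor, read -1.25, -1.26 and -1.14, Itgae, its integrin CD103, read -1.93, -2.11 and -2.23, Cadm1, an adhesion protein, read -1.58, and Clec9a, its receptor for dead cells, was not well above background on any array. Clec12a, a lectin of myeloid cells, was likewise not well above background on any array. The list's median level over its measured members was 0.59, against -1.49 for all genes with a matched probe.

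Of 21 measured monocyte and macrophage genes, 20 were kept, with a median level of 3.66, and 9 of them lay in the brightest 10%, where 6.45% of all genes with a matched probe lay. Adgre1, which encodes F4/80, read 6.41, 6.40 and 6.42 at position 2.08%, though its other kept probe read 0.40. Lyz2, lysozyme of myeloid cells, was saturated at a level of at least 7.04. Mertk, a receptor for dead cells used to tell macrophages apart, read -1.14, -1.03 and -1.12 at position 73.3%. Csf1r, Cd68, Ly6c2 and Mpeg1 are not analysed here. Cd14, a co-receptor for lipopolysaccharide, Fcgr1, the high-affinity IgG receptor, Apoe, the lipid carrier, and Trem2, a lipid-sensing receptor, lay between positions 1.52% and 4.56%. The complement genes C1qa, C1qb and C1qc read 3.66, 3.11 and 4.19. Ccr2, which brings monocytes out of the marrow, read 4.14, 4.11 and 4.12. Markers of resident macrophages were at the other end, with Cd163 at -3.76, -3.92 and -3.44, near the bottom of the kept genes, and Vsig4 not well above background on any array.

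All 16 measured genes of the GM-CSF receptor and its signalling were kept, with a median level of 2.24. The receptor pairs a ligand-binding alpha chain with a beta chain that it shares with other cytokines. Csf2ra, the alpha chain, was saturated at a level of at least 6.91. The probe of Csf2rb2 read 7.13, 7.07 and 7.10, while that of Csf2rb, the shared beta chain, read 2.17, 2.18 and 2.11. These genes are near copies, so how the signal divides between them is uncertain. Downstream, Jak2, the kinase bound to the receptor, read 3.54 ± 0.046 (SD, n = 3), and the transcription factors Stat5a and Stat5b read 1.81 and 2.69. Second kept probes of Jak2 and Stat5b read -2.18 and -2.33. Cish, Socs1, Socs2 and Socs3, inhibitors that such signals induce, had levels from 1.23 to 2.71. Ptpn6, a phosphatase that restrains the receptor, read 5.01 ± 0.011 (SD, n = 3), with a second kept probe at 0.34. Pparg, a lipid-sensing nuclear receptor induced by GM-CSF, read 2.19, 2.18 and 2.15. Csf2 itself, the gene of GM-CSF, was not well above background on any array.

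**Figure D3:**
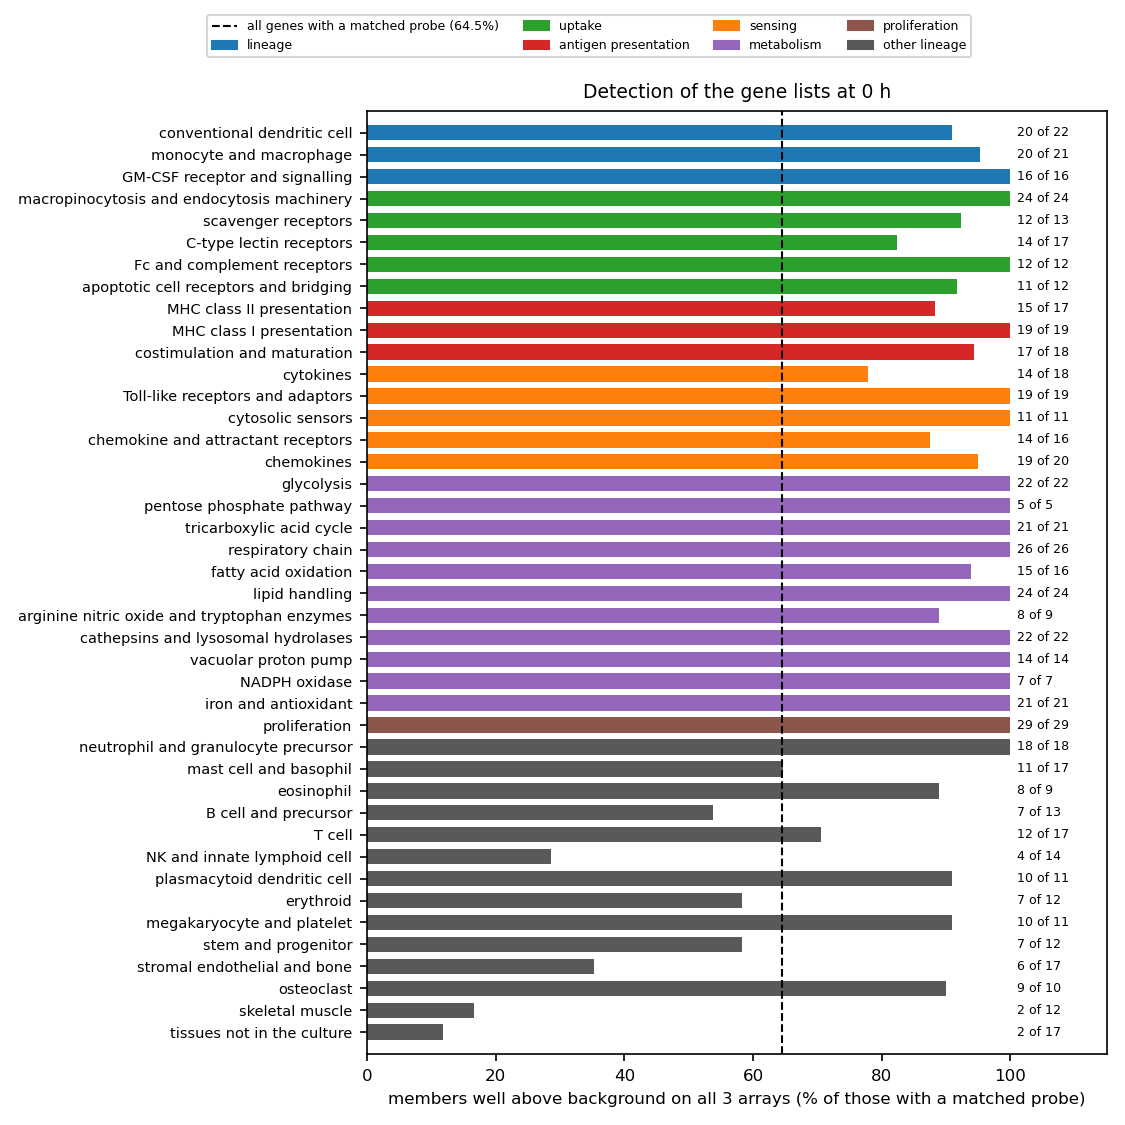
Bars give the share of a list's genes with a matched probe that were well above background on all 3 arrays, coloured by the kind of list, with the counts at the right. The dashed line marks 64.5%, the share over all genes; every list of uptake, presentation, sensing and metabolism lies above it, and the skeletal muscle list, at 2 of 12, and the list of tissues not in the culture, at 2 of 17, lie far below.

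The machinery of uptake was read almost completely. All 24 measured genes of macropinocytosis and endocytosis were kept, with a median level of 3.02, and 11 lay in the brightest 10%. Clta, a clathrin light chain, and Cltc, the heavy chain, read 6.62 ± 0.0090 (SD, n = 3) and 1.41 ± 0.034 (SD, n = 3). The small GTPases that shape membrane ruffles were bright, with Cdc42 at 5.91, 5.91 and 5.95, Rac2 at 5.67, 5.67 and 5.68 and Rac1 at 4.66, 4.72 and 4.70. Coro1a, an actin-binding protein of leukocytes around phagosomes, was saturated at a level of at least 7.15. Arpc3, part of the complex that branches actin, and Cfl1, which cuts actin filaments, read 6.11 and 5.63. Rab5c and Rab7, which mark early and late endosomes, read 4.92 and 4.26. The dimmest member was Cav1, the caveolin of flask-shaped pits, at -2.91, -2.80 and -3.15. Actb, a gene that nearly all cells express highly, read 1.55 ± 0.067 (SD, n = 3) at position 39.4%, so a middle position need not mean a scarce transcript.

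Receptors for particles and sugars were read in most families. Of 13 measured scavenger receptor genes 12 were kept, with a median level of 1.25. None lay in the brightest 10%, where 6.45% of all genes with a matched probe lay. Msr1, the class A scavenger receptor, read 4.15, 4.18 and 4.14 and Cd36, a receptor for oxidised lipids, read 3.35, 3.31 and 3.35. Marco, a scavenger receptor that binds bacteria and particles, read -1.21, -1.22 and -1.20 at position 74.6%. Ager was well above background on 1 of 3 arrays. Of 17 measured C-type lectin genes 14 were kept, a share of 82.4% beside 64.5% for all genes, with a median level of 3.57. Clec4n, which encodes Dectin-2, was saturated at a level of at least 7.02. Clec4a2 and Clec4b1 read 6.81 and 6.25, though the Clec4 genes are close relatives and their probes may share signal. Clec4d and Clec4e, the receptors MCL and Mincle for mycobacterial glycolipid, read 4.55 and 4.48. Mrc1, the mannose receptor, read 0.95, 0.97 and 1.04 at position 48.0%, and Ly75, the endocytic receptor DEC-205, read -1.07, -1.03 and -1.18.

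All 12 Fc and complement receptor genes were kept, with a median level of 3.39. The activating receptors Fcgr3 and Fcgr1 gave levels of 6.30, 6.23 and 6.27 for Fcgr3 and 5.35, 5.34 and 5.36 for Fcgr1, and Fcer1g, their signalling chain, read 6.04 ± 0.018 (SD, n = 3). Fcgr2b, the inhibitory receptor, read 3.79, 3.78 and 3.82, and Fcgr4 read 0.64, 0.81 and 0.79. Itgam, which encodes CD11b, read 2.83, 2.95 and 2.89 and Itgb2, its partner chain CD18, read 5.52, 5.56 and 5.54. Of 12 genes for the clearance of dead cells 11 were kept, with a median level of -0.38. The bridging protein Mfge8 and the lipid-binding protein Anxa1 lay in the brightest 5% at 6.18 and 6.80. Among receptor genes of the list, the integrin chain Itgb5 read 5.64, 5.63 and 5.63 at position 3.81%, and Cd300lf read 4.11, 4.15 and 4.15. The receptors Axl, Mertk and Tyro3 read 1.84, -1.10 and -3.82, and Timd4 read -3.17. Itgav, with 1 matched probe, was not well above background on any array.

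Genes of MHC class II presentation were bright throughout the core pathway. Of 17 measured genes 15 were kept, with a median level of 4.39, and 9 lay in the brightest 10%. H2-Eb1, the beta chain of I-E, read 7.27, 7.30 and 7.27 without saturation, and H2-Aa, the alpha chain of I-A, read 6.74, 6.74 and 6.76. H2-Ab1, the beta chain of I-A, and Cd74, the invariant chain that guides class II molecules to endosomes, were saturated at levels of at least 7.19 and 7.22. H2-DMa and H2-DMb1, the exchange factor that loads peptide, gave levels of 4.37, 4.41 and 4.40 for H2-DMa and 6.53, 6.56 and 6.58 for H2-DMb1, and its second beta gene H2-DMb2 read 4.58, 4.59 and 4.56. H2-Oa, part of an inhibitor of that exchange, read 1.40, 1.56 and 1.40, while its partner H2-Ob was well above background on 2 of 3 arrays and so was not kept. H2-Eb2 was not well above background on any array. Ctss, the protease that removes the invariant chain, was saturated at a level of at least 7.33. Ifi30, a lysosomal thiol reductase, read 4.42, 4.48 and 4.50. Marchf1, the ubiquitin ligase that turns class II molecules over in immature cells, read 3.69, 3.62 and 3.66.

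Class II genes are switched on through an X box and a Y box before the start site. The RFX complex of Rfx5, Rfxank and Rfxap binds the X box, NF-Y binds the Y box, whose core reads ATTGG, and the co-activator CIITA joins them. Ciita read 3.28, 3.41 and 3.34, Rfxap 1.64, 1.78 and 1.74 and Rfxank 1.27, 1.28 and 1.15. Rfx5 read -2.39, -2.31 and -2.36, at position 85.6%. Of 8 chain genes of the list with a promoter sequence, 7 held ATTGG on the gene's strand, 5 kept and 2 not. To set their shared boxes beside their levels, the 150 bases before the start site are shown for these 7. They come from RefSeq on the GRCm38.p6 build, 5′ to 3′ on the gene's own strand. Capitals mark ATTGG, or CCAAT where it lies on the other strand, and the X box like stretch AACNNATGNTGC, which is the consensus of the 5 windows that hold it and was drawn up after they had been read. Both strands were searched for each.
H2-Eb1 (kept, chr17:34305717-34305866, plus strand): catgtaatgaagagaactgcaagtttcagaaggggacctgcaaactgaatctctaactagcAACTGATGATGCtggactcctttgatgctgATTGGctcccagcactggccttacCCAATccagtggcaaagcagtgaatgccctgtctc
H2-Aa (kept, chr17:34287824-34287973, minus strand): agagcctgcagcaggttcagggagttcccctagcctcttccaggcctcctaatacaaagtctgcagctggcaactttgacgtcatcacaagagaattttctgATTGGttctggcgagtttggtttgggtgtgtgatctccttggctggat
H2-DMb1 (kept, chr17:34153041-34153190, plus strand): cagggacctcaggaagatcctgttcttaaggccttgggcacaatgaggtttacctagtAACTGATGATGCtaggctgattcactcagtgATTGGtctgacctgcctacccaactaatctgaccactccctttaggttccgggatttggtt
H2-DMb2 (kept, chr17:34145099-34145248, plus strand): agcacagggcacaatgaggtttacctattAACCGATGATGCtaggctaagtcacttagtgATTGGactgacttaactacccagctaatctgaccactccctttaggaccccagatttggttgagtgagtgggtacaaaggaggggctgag
H2-Oa (kept, chr17:34092229-34092378, plus strand): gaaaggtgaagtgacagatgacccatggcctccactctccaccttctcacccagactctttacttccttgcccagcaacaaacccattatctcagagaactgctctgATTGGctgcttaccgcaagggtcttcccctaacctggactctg
H2-Ob (not kept, chr17:34238755-34238904, plus strand): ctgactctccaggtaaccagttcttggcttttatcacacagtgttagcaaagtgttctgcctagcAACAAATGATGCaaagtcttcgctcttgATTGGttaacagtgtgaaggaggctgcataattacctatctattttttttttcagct
H2-Eb2 (not kept, chr17:34325525-34325674, plus strand): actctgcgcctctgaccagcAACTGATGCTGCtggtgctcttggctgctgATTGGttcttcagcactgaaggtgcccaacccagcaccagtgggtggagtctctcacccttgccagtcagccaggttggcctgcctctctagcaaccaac

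These 7 windows were shown because they hold ATTGG on the gene's strand, which H2-DMa, the other of the 8 genes, does not. The first base of ATTGG lay at -59 in H2-Eb1, -48 in H2-Aa, -61 in H2-DMb1 and -90 in H2-DMb2. In H2-Oa it lay at -43, in H2-Ob at -57 and in H2-Eb2 at -100, where -1 is the base before the start. Among all 32851 start sites, 13.7% held ATTGG on the gene's strand in the same window, and 24.5% held it on either strand. The longer stretch, searched on both strands, lay before ATTGG in H2-Eb1, H2-DMb1, H2-DMb2, H2-Ob and H2-Eb2, with 16 to 19 bases between them. It stood in 0.067% of all start sites on either strand, and 7 of the 32851 held both on the gene's strand, 5 of them these class II genes. Since its letters were taken from these windows, that count is a description. H2-Ob and H2-Eb2 held both stretches and were not kept, and H2-Aa and H2-Oa were kept and held only ATTGG, so in these letters the kept and unkept genes were not set apart. H2-DMa, with 2 start sites in the table, held neither.

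All 19 measured genes of MHC class I presentation were kept, with a median level of 5.07, and 13 lay in the brightest 10%. H2-D1, a classical heavy chain, was saturated on 2 of 3 arrays at a level of at least 7.14. H2-T23 was saturated on all 3 at a level of at least 7.15, and H2-Q7 and H2-Q10 read 7.00 and 7.13. Other kept probes of H2-Q10 read 5.08 and -1.83. These heavy chains are near copies, and which of them the probes report is uncertain. B2m, their shared light chain, read 6.53, 6.61 and 6.65. The immunoproteasome genes Psmb8, Psmb9 and Psmb10, which cut peptides for class I, read 5.51, 5.00 and 5.80. The peptide transporter genes Tap1 and Tap2 gave levels of 1.72, 1.65 and 1.65 for Tap1 and 0.93, 0.99 and 0.93 for Tap2, and Tapbp, which ties the transporter to class I, read 5.60, 5.57 and 5.55. A second kept probe of Tapbp read 1.21. Cd1d1, which presents lipids, read 3.76 ± 0.039 (SD, n = 3).

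Genes that mark maturation were spread over the whole scale at 0 h. Of 18 measured genes 17 were kept, with a median level of 0.02, and 9 lay in the dimmer 50%. Cd86 and Cd80, ligands that costimulate T cells, gave levels of 1.81, 1.84 and 1.83 for Cd86 and -1.64, -1.60 and -1.70 for Cd80. Cd83, a surface protein of mature dendritic cells, read 4.05, 4.06 and 4.09, and Ccr7, which guides cells to lymph nodes, read 3.66, 3.62 and 3.65 at position 14.2%. Fscn1, the actin bundler of dendrites, read -0.15, -0.14 and -0.23. Ccl17, a T cell attractant, read 5.86, 5.89 and 5.87 at position 3.12%, while its neighbour in function Ccl22 read -1.26, -1.39 and -1.29. Cd274, the inhibitory ligand PD-L1, read 2.56 ± 0.051 (SD, n = 3), and Il12a was well above background on 2 of 3 arrays. Cd40 and Il12b are not analysed here. These levels have no mature sample measured as such beside them here, so they state what was read and not a degree of maturity.

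Of 18 measured cytokine genes 14 were kept, a share of 77.8% beside 64.5% for all genes, with a median level of 0.08. Spp1, which encodes osteopontin, read 7.00, 7.02 and 7.09 at position 0.938%. Il1rn, the antagonist of interleukin 1, read 4.07, 4.01 and 4.04 and Il1b read 3.23, 3.19 and 3.24, while Il1a read -2.14, -2.03 and -2.16. A second kept probe of Il1rn read -0.01. Tnf read 1.23, 1.21 and 1.20. Il6 and Ifnb1 gave levels of -2.0, -2.06 and -2.11 for Il6 and -2.10, -2.04 and -2.01 for Ifnb1, in the dimmer 50%. Il10, Il23a, Csf2 and Csf3 were not well above background on any array. Of 20 measured chemokine genes 19 were kept, with a median level of 3.16. Ccl6 was saturated at a level of at least 7.01, and Ccl9, a chemokine of myeloid cells, read 6.65, 6.65 and 6.71. Ccl24, Cxcl16 and Cxcl10 read 4.72, 4.32 and 3.66, Cxcl1 read -2.79, -2.66 and -2.51, and Ccl8 was not well above background on any array.

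Sensors of microbes were read in full where measured. All 19 Toll-like receptor and adaptor genes were kept, with a median level of 1.07. Tlr2, which senses bacterial lipopeptides, read 5.31, 5.30 and 5.30 at position 4.69%. Tlr4, the receptor for lipopolysaccharide, read 1.64, 1.61 and 1.62, and its partner Ly96 read 1.77, 1.76 and 1.76. Tlr9 and Tlr7, which sense nucleic acids in endosomes, read 2.21 and 1.07, and Unc93b1, which carries them there, read 5.94 ± 0.030 (SD, n = 3). Tlr3, which senses double-stranded RNA, lay at the bottom at -3.96, -3.74 and -4.14. The shared adaptor Myd88 read 3.75, 3.71 and 3.71. All 11 measured cytosolic sensor genes were kept, with a median level of 1.86. Pycard, the inflammasome adaptor, and Casp1, its protease, read 5.26 and 3.98, while the sensors Nlrp3 and Aim2 read -1.73 and -4.04. Among 16 attractant receptor genes 14 were kept, led by Ltb4r1, the leukotriene B4 receptor, at 5.06 ± 0.020 (SD, n = 3). Ccr1 read -3.20 ± 0.17 (SD, n = 3), and Cxcr5 and Ackr2 were not well above background on any array.

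Metabolic genes were read almost without gaps, with 185 of 187 measured genes kept (98.9%) and a median level of 3.90. In the cathepsin and lysosomal hydrolase list all 22 genes were kept, the median level was 6.08, and 16 lay in the brightest 10%. Ctss, Ctsl, Ctsh, Psap, Grn and Cst3 were saturated on all 3 arrays. Ctsz and Ctsd, proteases that were not saturated, gave levels of 7.44, 7.42 and 7.39 for Ctsz and 7.25, 7.30 and 7.34 for Ctsd. Lamp1, a lysosomal membrane protein, read 6.50, 6.46 and 6.49. Ctsk, the collagen-cutting cathepsin of osteoclasts, was the dimmest at -2.59, -2.66 and -2.64. All 14 genes of the vacuolar proton pump, which acidifies lysosomes, were kept with a median level of 2.99, from Atp6v0d2 at -1.53 ± 0.050 (SD, n = 3) to Atp6v0e at 6.48 ± 0.019 (SD, n = 3). All 7 genes of the NADPH oxidase, which makes superoxide in phagosomes, were kept. Its membrane subunits Cybb and Cyba gave levels of 4.59, 4.63 and 4.65 for Cybb and 6.00, 6.05 and 6.04 for Cyba, and the cytosolic subunit Ncf4 was saturated at a level of at least 6.97.

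Both sugar and oxygen use were represented. All 22 measured glycolysis genes were kept, with a median level of 3.58. Aldoa and Gpi1 were saturated at levels of at least 7.39 and 7.09. Pgk1 and Ldha, which make ATP and lactate, gave levels of 6.47, 6.45 and 6.48 for Pgk1 and 6.61, 6.59 and 6.63 for Ldha. Slc2a1, a glucose importer, read 3.91, 3.92 and 3.88, and Slc2a6, a further sugar transporter, read 5.29, 5.28 and 5.30. Hk2 and Hk3, which trap glucose in the cell, read 3.26 and 2.90, and Hk1 read -0.73. Of the pentose phosphate pathway, which supplies NADPH, all 5 measured genes were kept. Taldo1 was saturated on 2 of 3 arrays at a level of at least 7.32, Tkt read 6.92 ± 0.033 (SD, n = 3), with a second kept probe at -2.76, and G6pdx, the entry enzyme, read 5.40, 5.43 and 5.44.

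All 21 tricarboxylic acid cycle genes were kept with a median level of 3.24, led by Mdh2, saturated at a level of at least 7.40, and by Cs, citrate synthase, at 5.76 ± 0.0051 (SD, n = 3). All 26 respiratory chain genes were kept with a median level of 4.97, and 21 lay in the brightest 10%. They ran from Ndufb5, a subunit of complex I, at 1.74, 1.74 and 1.84 to Cox4i1, a subunit of cytochrome oxidase, at 7.15, 7.15 and 7.15. Of 16 fatty acid oxidation genes 15 were kept, with a median level of 2.82. Cpt1a, which brings fatty acids to mitochondria, read 2.50, 2.47 and 2.47, and Ppargc1a, a co-activator of mitochondrial genes, was not well above background on any array.

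Lipid handling showed a wide range, with all 24 genes kept and a median level of 2.05. Lpl, lipoprotein lipase, read 6.90, 6.90 and 6.96, and Plin2, the coat of lipid droplets, read 6.80, 6.82 and 6.82. Fasn, fatty acid synthase, read 4.46 ± 0.017 (SD, n = 3), with a second kept probe at -2.70. Fabp4 and Fabp5, fatty acid carriers, gave levels of -1.27, -1.18 and -1.21 for Fabp4 and -3.79, -3.53 and -3.64 for Fabp5. Of 9 measured genes of arginine, nitric oxide and tryptophan metabolism 8 were kept. Arg1, arginase, read -0.36, -0.19 and -0.26 at position 64.3%, Ass1, which remakes arginine, read 4.30, 4.28 and 4.27, and Ido1, which breaks down tryptophan, read -3.08, -2.54 and -2.91. Nos2, the inducible nitric oxide synthase, was not well above background on any array. All 21 iron and antioxidant genes were kept, with a median level of 5.05. Besides ferritin, Gpx1, which reduces peroxides, was saturated at a level of at least 6.94, and Sod1, Prdx1 and Hmox1 read 6.77, 6.22 and 5.05. Tfrc, the transferrin receptor, read 0.77, 0.82 and 0.81.

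Genes of the cell cycle were read as well. All 29 measured proliferation genes were kept, with a median level of 2.96, and 5 lay in the dimmer 50%. Pcna, the sliding clamp of DNA synthesis, read 5.17, 5.17 and 5.16. The mitotic genes Birc5, Ccnb2 and Cdc20 gave levels of 5.22, 5.20 and 5.25 for Birc5, 5.13, 5.11 and 5.11 for Ccnb2 and 4.89, 4.88 and 4.88 for Cdc20. Top2a, which untangles DNA, read 1.32, 1.31 and 1.32, with a second kept probe at -1.96. Mcm3 to Mcm7, which form the replicative helicase with Mcm2, had levels from 3.09 to 3.87, and Mcm2 read 0.35 ± 0.023 (SD, n = 3). Mki67 is not analysed here.

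**Figure D4:**
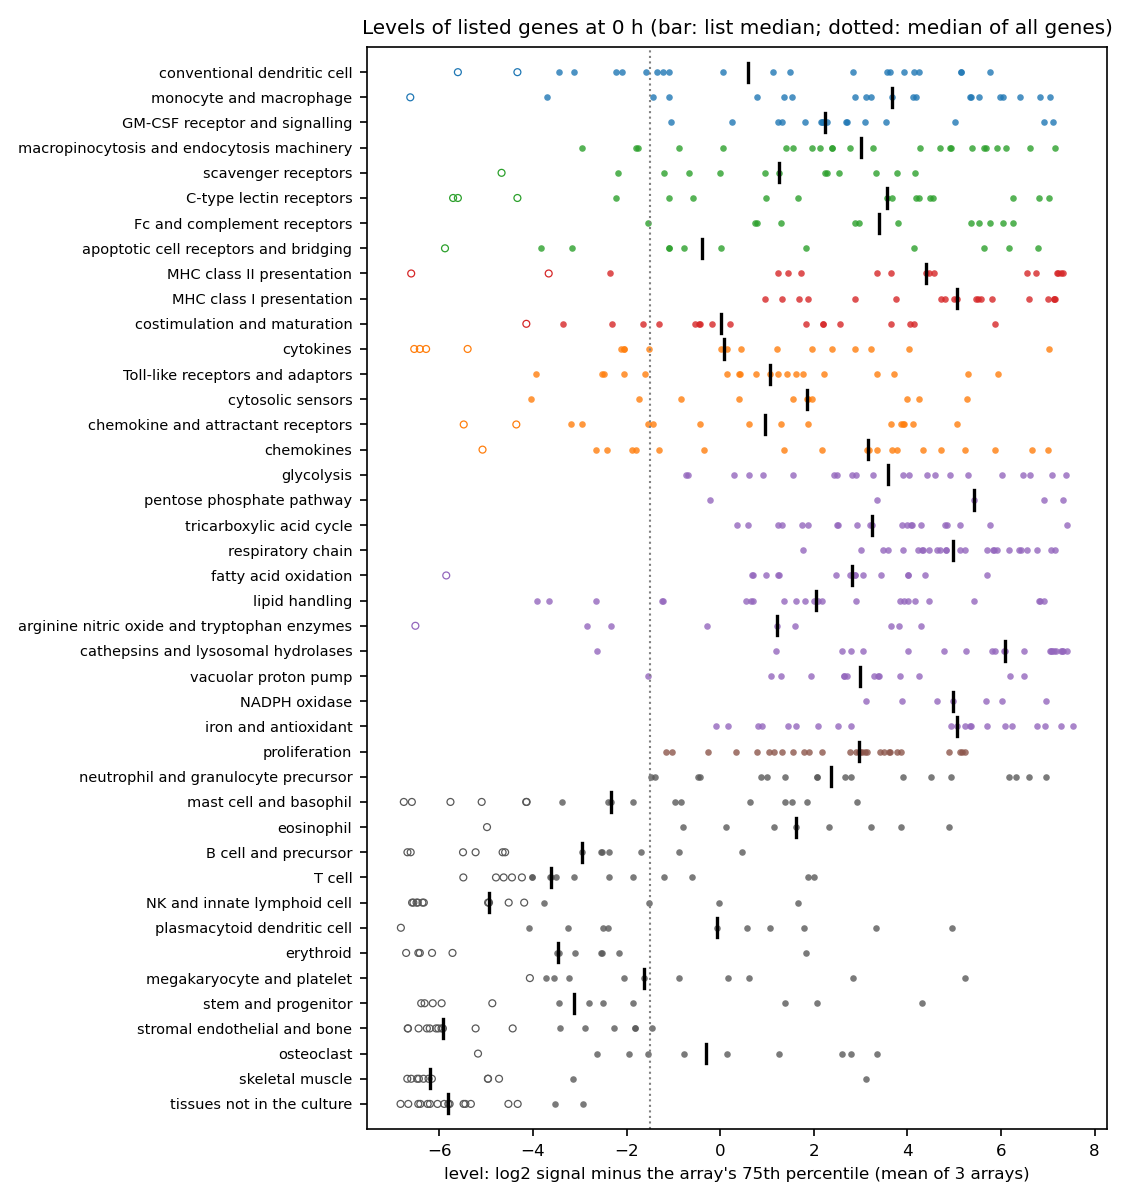
Each point is the mean level of a listed gene over 3 arrays, filled where it was well above background on all 3 and open where it was not, and each black bar is the list's median. The dotted line marks the median of all genes with a matched probe, -1.49; medians of the metabolic lists lie above it, and those of the lymphoid, erythroid, stem, stromal, muscle and other tissue lists lie below it.

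Of lists for lineages other than dendritic cells and macrophages, that of neutrophils and their precursors was read in full. All 18 measured genes were kept, with a median level of 2.37, and all 8 measured defining markers were among them. The granule genes Ltf, Ngp and Camp, of maturing neutrophils, gave levels of 4.96, 4.92 and 4.91 for Ltf, 4.51, 4.51 and 4.52 for Ngp and 3.90, 3.90 and 3.92 for Camp. Genes of the earlier azurophil granule followed, with Mpo at 2.67, 2.63 and 2.69, Ctsg at 2.06, 2.07 and 2.08, Prtn3 at -0.51, -0.43 and -0.45 and Elane at -1.46, -1.46 and -1.5. S100a8 read 6.63, 6.58 and 6.58 and S100a9 was saturated, and both are also known in monocytes. Mmp8, a neutrophil collagenase, read 6.18, 6.12 and 6.18, and Csf3r and Cxcr2, receptors of neutrophils, read 1.00 and -0.44. Chil3, at 6.32 ± 0.014 (SD, n = 3), is also a gene of alternatively activated macrophages and has near copies. The summed signal of the 18 genes, each relative to the array's 75th percentile, lay between 466 and 478 on the 3 arrays, which are lower bounds because saturated S100a9 makes up 26.4% of the sum. In bulk RNA fewer cells of a type and less RNA per cell cannot be told apart. Whether granulocyte RNA contributes to the levels of genes that granulocytes share with dendritic cells, such as Cybb, Fcer1g, Itgb2 and Itgam, was not tested.

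Eosinophil and basophil genes were read in part. Of 9 measured eosinophil genes 8 were kept, with a median level of 1.62 and a summed signal of 64.8 to 66.0. Prg2, the major basic protein, read 4.92, 4.87 and 4.88, Epx, eosinophil peroxidase, read 1.17, 1.13 and 1.14, and Siglecf read 2.35, 2.31 and 2.31. Ccr3 read -0.80 ± 0.033 (SD, n = 3), and Il5ra was not well above background on any array. Of 17 measured mast cell and basophil genes 11 were kept, a share of 64.7% beside 64.5% for all genes, with a median level of -2.34. Their summed signal was 20.2 to 20.3, of which the list's brightest gene made up 37.3%. Mcpt8 and Prss34, proteases of basophils, gave levels of -0.78, -0.78 and -0.91 for Mcpt8 and 0.67, 0.65 and 0.61 for Prss34, and Gata2 read 1.38 ± 0.038 (SD, n = 3). Cpa3, shared by mast cells and basophils, read -1.09, -0.87 and -0.90. The mast cell proteases Tpsb2, Mcpt1 and Mcpt2 and the receptor chain Ms4a2 were not well above background on any array, and Cma1 was on 1.

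**Figure D5:**
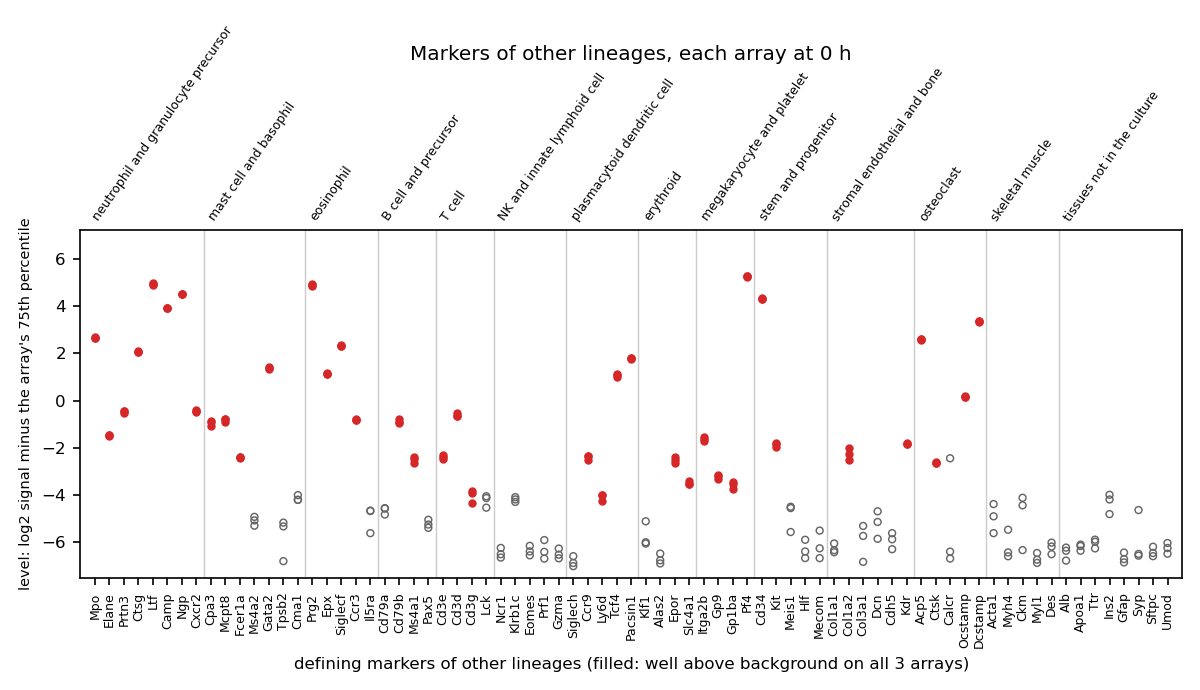
For defining markers of lineages other than dendritic cells and macrophages that are reported here, 3 points a gene give the level on each array, filled where all 3 were well above background. Markers of neutrophils, eosinophils, megakaryocytes and osteoclasts are mostly filled. Those of NK cells, skeletal muscle and tissues not in the culture are all open. Ltf, Prg2, Pf4 and the stem and progenitor marker Cd34 lie between 4.29 and 5.25.

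The T, B and NK cell lists had medians below the -1.49 of all genes with a matched probe, although the share of genes kept was not lower in each. Of 17 measured T cell genes 12 were kept, a share of 70.6% beside 64.5% for all genes, with a median level of -3.62 and a summed signal of 9.82 to 10.1. Of the 4 measured defining markers 3 were kept. Cd3d, Cd3e and Cd3g, chains of the T cell receptor complex, gave levels of -0.66, -0.63 and -0.54 for Cd3d, -2.46, -2.37 and -2.28 for Cd3e and -3.93, -4.32 and -3.81 for Cd3g, and Lck was well above background on 2 of 3 arrays. Il7r and Cd6 were the brightest of the list at 2.01 and 1.87, with second kept probes at -2.17 and -3.17. Of 13 measured B cell genes 7 were kept (53.8%, beside 64.5% for all genes), with a median level of -2.95. Their summed signal was 3.00 to 3.15, of which the list's brightest gene made up 45.2%. Cd79b and Ms4a1 read -0.88 and -2.51, and Cd79a, Pax5 and Ebf1 were not well above background on any array. Of 14 NK and innate lymphoid genes 4 were kept (28.6%), with a median level of -4.95 and a summed signal of 4.73 to 4.99, and none of the 5 defining markers Ncr1, Klrb1c, Eomes, Prf1 and Gzma was among them. Klrd1, an NK receptor chain also found in dendritic cells, gave the list its brightest reading at 1.63, 1.68 and 1.71 and 65.8% of its sum.

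Of 11 plasmacytoid dendritic cell genes 10 were kept (90.9%), with a median level of -0.08, above that of all genes, and a summed signal of 49.3 to 49.8. Of the 5 defining markers 4 were kept. Pacsin1 read 1.80, 1.79 and 1.77, and Tcf4, a transcription factor of these cells, read 0.99, 1.12 and 1.08. Ccr9 read -2.40, Ly6d read -4.24, -4.01 and -3.99, and the receptor Siglech was not well above background on any array. Bst2, which many cells express, read 4.95 ± 0.0088 (SD, n = 3) and made up 62.4% of the sum.

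Of 11 megakaryocyte and platelet genes 10 were kept, a share of 90.9% beside 64.5% for all genes. Their median level was -1.63 and their summed signal 48.6 to 49.5. Pf4, a platelet chemokine that macrophages also make, read 5.25, 5.22 and 5.25 and made up 77.0% of the sum. The platelet receptor genes Itga2b, Gp9 and Gp1ba read -1.63, -3.22 and -3.56. Of 12 measured erythroid genes 7 were kept, a share of 58.3% beside 64.5% for all genes, with a median level of -3.46 and a summed signal of 4.38 to 4.58. Car2, a carbonic anhydrase of erythroid and many other cells, read 1.82 and made up 79.0% of that sum, and Klf1 and Alas2 were not well above background on any array. The globin genes Hba-a1 and Hbb-bt read -3.11 and -2.54. Of 12 stem and progenitor genes 7 were kept, also 58.3%, with a median level of -3.12 and a summed signal of 27.2 to 28.1. Cd34 read 4.35, 4.29 and 4.30 and made up 72.3% of the sum. Kit read -1.79, -1.85 and -1.95, Hlf, Mecom, Myb and Hoxa9 were not well above background on any array, and Meis1 was on 1.

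Of 10 osteoclast genes 9 were kept, with a median level of -0.31 and a summed signal of 27.8 to 28.5. Dcstamp, a fusion protein of osteoclasts that was named after dendritic cells, read 3.35, 3.35 and 3.32, Acp5 read 2.61, 2.58 and 2.58, and Calcr was well above background on 1 array. Stromal and endothelial genes were kept in 6 of 17 cases (35.3%, beside 64.5% for all genes), with a summed signal of 1.54 to 1.63. Col1a1, Col3a1, Dcn, Cdh5, Lum and Cxcl12 were not well above background on any array, and Col1a2 read -2.0, -2.53 and -2.26. The brightest of the kept members was Vcam1 at -1.45. Of 12 skeletal muscle genes 2 were kept, Tnnt3 at -3.14 ± 0.11 (SD, n = 3) and Tnni2 at 3.13 ± 0.021 (SD, n = 3), and none of the defining Acta1, Myh4, Ckm, Myl1 and Des. Of 17 measured genes of tissues that the culture should lack, such as Alb of liver and Gfap of glia, the keratin genes Krt5 and Krt14 were kept, at -3.53 and -2.93. In the muscle list and that of other tissues, Tnnt3, Krt5 and Krt14 lay in the dimmest 10% of kept genes and Tnni2 did not. The summed signal of the muscle list was 8.91 to 9.13, with 96.6% from Tnni2, beside 9.82 to 10.1 for the T cell list. It exceeded the sums of the B cell, NK and erythroid lists, so a sum of this size can rest on 1 probe. The list of other tissues summed to 0.496 to 0.673, and that of conventional dendritic cells to 217 to 218.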

How the data were processed

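The data were 12 arrays, of which the 3 at 0 h were used for the levels of genes and the other 9 only for the likeness check. Per the file headers, the deposited scanner files give each spot's intensity, background-subtracted and detrended by Agilent Feature Extraction 9.1.3.1 on a linear scale. The authors also deposited a value table of ratios, each probe divided by its median over the 0 h columns, which served only for the likeness check and as an alternative for the spread. No genome build is given in the sources used here for the arrays.

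The log2 of each non-control spot was taken, the array's 75th percentile was subtracted, 25 spots marked as outliers were left out, and the spots of a probe were averaged. RefSeq accessions matched 22937 of 23837 probes with an mRNA accession to symbols of a GRCm38.p6 gene table, which named 22951 probes in all (55.7%), while 6199 kept probes stayed unnamed. Each gene was read from its brightest kept probe. Different probes of a gene often disagree, as the report gives.

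No test was run, because a single group is described. The members and the 42 lists, of 685 genes from textbook knowledge, were chosen with earlier results of these data known. No probe was matched for 37 listed genes, which are not analysed here. A few listed genes count in their lists but are not reported here by name. Named genes are those of the lists, the 30 brightest, and the 15 with the largest SD among kept genes above the median level. The number of arrays limits the precision of the spread. Promoter windows came from a RefSeq table of GRCm38.p6. The alternatives were other detection calls, outlier spots kept, the median of all probes, normexp, quantile and median scaling, the value table, and leaving out each array. Normexp with an offset of 50 used the median spot signal, where the mean signal had been planned, since the files hold no such column. The script was tested on simulated data. Python 3.11.15, pandas 2.3.3, R 4.3.3 and limma 3.58.1 were used.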

Additional observations from a re-analysis of the deposited data

How the results depend on the processing

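Of 294 counts of list members under the alternatives, 291 stayed within 1.5 times of the count given. The other 3 came with the scanner's weaker call of a positive and significant signal in place of well above background, which kept 7 NK and innate lymphoid genes, 4 skeletal muscle genes and 8 genes of tissues not in the culture. With normexp background correction 12 of the 30 brightest genes stayed among the 30 brightest, in a range where most probes are saturated. The median SD over the arrays, 0.0373 here, was 0.0845 with normexp, 0.0886 from the value table, as log2 ratios, and between 0.0301 and 0.0322 with 1 array left out. With the median of every probe of a gene in place of its brightest kept probe, named genes moved by a median of 4.68 percentage points of rank, 277 of 588 moved by over 5 points, and Pfkfb3 moved by 68.8. With normexp the median move was 0.867 points. The causes of these differences were not tested. No paired analysis was possible because 1 group is described and no groups are compared. Saturation limits what can be read at the top of the scale, and signal near background at the bottom.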

Other observations

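A few genes above the median level differed between the 3 arrays by far more than the median SD of 0.0373. Syn1, which encodes the synaptic vesicle protein synapsin 1, read 4.33, 4.43 and 1.74 (SD 1.53, n = 3), and its other kept probe had a mean of -2.94. In the deposited value table the log2 ratios of the same samples were -0.11, 0.03 and 0.00, so the table does not show the low reading of the third array. Klf2, a transcription factor of quiescent leukocytes, read 6.32, 6.31 and 5.92, against 4.96 for the mean of its other kept probe, and its table ratios were -0.25, 0.48 and 0.00. Fig4, a phosphoinositide phosphatase of endosomes, read 1.92, 1.44 and 1.42. Slc4a7, a bicarbonate transporter, read 2.16, 2.56 and 2.66, and Rusc1 read 3.81, 3.36 and 3.71. Galk1, Cdca3, Cyb561d2, Dcaf12l2, Vcpip1, Ndufs8, Arid5b, Stip1, Wrnip1 and Atg7 complete the 15 with the largest SD, from 0.13 for Atg7 to 0.25 for Galk1.

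Tnni2, a troponin of fast skeletal muscle, was the only one of 12 measured muscle genes in the brighter 50%, with a mean level of 3.13 ± 0.021 (SD, n = 3). Its own probe is the only one matched, and 5 of 5 defining muscle markers were not well above background on all 3 arrays. Genes known from alternatively activated macrophages, picked after their values were seen and from no list of their own, were uneven. Retnla, Chil3, Ccl17 and Ccl24 lay in the brightest 10%, while Mrc1 had a mean level of 0.99 at position 48.0%, Arg1 one of -0.27 at position 64.3% and Ccl22 one of -1.31 at position 75.6%. Nos2, of the classical kind, was not well above background on any array.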
